A study of Mus musculus with 4 samples.

Results

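The genes described here encode the receptor complexes of B and T lymphocytes. They are *Cd79a*, *Cd79b*, and *Ms4a1* of B cells, *Cd3d*, *Cd3e*, and *Cd3g* of T cells, and the T cell coreceptors *Cd4* and *Cd8a*. These 8 genes were taken by name, and all 8 are among the 24421 genes of the deposited values. RNA-seq was done on cells of the main olfactory epithelium (MOE) of C57BL/6 transgenic mice, sorted by FACS into reporter-positive and reporter-negative cells. In the line labelled TAAR enhancer 1-GFP transgenic, the first enhancer of the *Taar* gene cluster drives GFP from the Hsp68 minimal promoter, and in the line labelled TAAR enhancer 2-tdTomato transgenic, the second enhancer drives tdTomato from the same promoter. The enhancers are those of trace amine-associated receptors, a small family of olfactory receptors, and the sort was made to enrich the olfactory sensory neurons (OSNs) that express them. Each line was kept from 1 founder. Each of the 4 groups (GFP-negative, GFP-positive, tdTomato-negative, and tdTomato-positive) has 1 library. The labels describe the mice as adult, while the reporting summary of the study gives juvenile ages for both lines and mixed C57BL/6J and 129 backgrounds. The ages in that summary reach higher for the TAAR enhancer 2-tdTomato line than for the TAAR enhancer 1-GFP line. Animals of the same genotype were sorted together, and the gates were set on reporter fluorescence after papain dissociation, so that the reporter-negative gate could hold any unlabelled cell of the dissected tissue.

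B and T lymphocytes recognise antigens through receptors whose variable chains have almost no cytoplasmic part. The signal is passed on by invariant partners, which carry tyrosine motifs that kinases of the Src and Syk families phosphorylate and bind. In B cells the partners are CD79A (Ig-alpha) and CD79B (Ig-beta), and in T cells they are the CD3 delta, epsilon, and gamma chains together with the zeta chain. CD20, the product of *Ms4a1*, is a membrane protein of B cells, and CD4 and CD8 alpha bind MHC class II and class I, respectively, and bring the kinase LCK to the T cell receptor. OSNs are not known for any of these complexes, and lymphocytes of the nasal mucosa lie in and under the epithelium.

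By GENCODE M21 positions (build GRCm38, also called mm10), the 3 *Cd3* genes lie within 40056 bases of chromosome 9, from position 44969572 to 45009627. *Cd3g* is on the minus strand and *Cd3d* on the plus strand, and their transcripts start 1355 bases apart and run away from each other. *Cd3e*, on the minus strand, ends 11401 bases after the end of *Cd3d*. *Cd79a* is on the plus strand of chromosome 7 (24897381 to 24902197) and *Cd79b* on the minus strand of chromosome 11 (106311341 to 106314762). *Ms4a1* is on the minus strand of chromosome 19 (11249675 to 11266241). *Cd4* (124864692 to 124888221, minus strand) and *Cd8a* (71373427 to 71379173, plus strand) are both on chromosome 6. The antisense gene *4930526L06Rik* overlaps *Ms4a1*, and *Cd3e* is overlapped by the antisense gene *Gm48719* and by *Gm48720*, an unclassified gene on the same strand. Strand use in the quantification is not given in the sources used here, so reads of these genes and of the overlapping genes cannot be told apart.

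**Figure D1:**
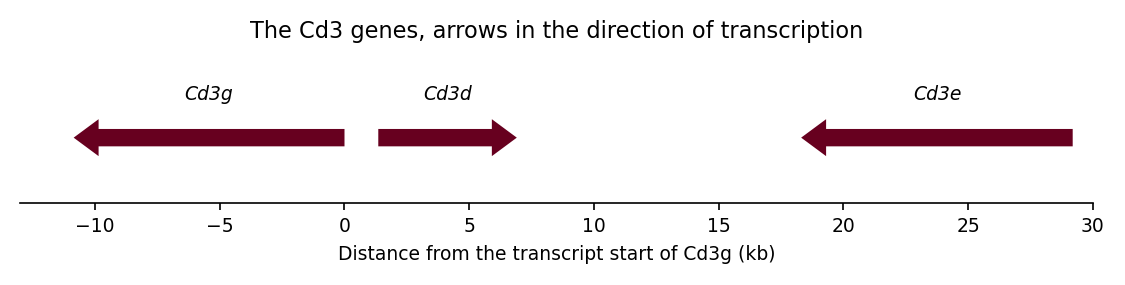
Map of the *Cd3* genes drawn to scale, with the distance in kb from the transcript start of *Cd3g* on the x axis and arrows pointing in the direction of transcription. *Cd3g* and *Cd3d* run away from starts 1355 bases apart, and *Cd3e* points toward them.

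Promoter sequences from RefSeq (GRCm38.p6) were found for 5 of the 8 genes (*Cd79a*, *Cd3d*, *Cd3e*, *Cd3g*, and *Cd8a*). Shown here are *Cd79a*, as the B cell gene, and the adjacent pair *Cd3d* and *Cd3g*, each trimmed to the bases before the first annotated transcript start and written 5′ to 3′ on the strand of the gene. The windows are chr7:24897247-24897380 (plus strand) for *Cd79a*, chr9:44981536-44981768 (plus strand) for *Cd3d*, and chr9:44980432-44980681 (minus strand) for *Cd3g*. Capitals mark matches, on either strand, to TCAAGGGA (letters of the Ebf1 site known at the *Cd79a* promoter), CAGNTG (an E-box of E proteins), or GGAAGT (a core of the Ets family).
*Cd79a*: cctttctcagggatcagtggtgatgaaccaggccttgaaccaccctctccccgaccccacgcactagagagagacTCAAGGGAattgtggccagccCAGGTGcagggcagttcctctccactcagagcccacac
*Cd3d*: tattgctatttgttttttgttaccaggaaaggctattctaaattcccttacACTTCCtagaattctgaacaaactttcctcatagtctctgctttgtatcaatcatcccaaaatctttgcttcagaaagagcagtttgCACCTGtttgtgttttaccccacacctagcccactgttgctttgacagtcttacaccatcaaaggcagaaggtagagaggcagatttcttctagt
*Cd3g*: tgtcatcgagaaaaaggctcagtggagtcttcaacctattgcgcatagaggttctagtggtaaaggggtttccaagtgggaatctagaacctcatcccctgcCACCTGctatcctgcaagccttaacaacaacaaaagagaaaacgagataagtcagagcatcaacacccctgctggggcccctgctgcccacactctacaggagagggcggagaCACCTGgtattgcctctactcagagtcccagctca

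CAGNTG was present in these 3 windows and in neither *Cd3e* nor *Cd8a*. It also occurred in 44.8% of all 32851 RefSeq promoters over the 250 bases before the start, and in 27.2% over the window length of *Cd79a*. GGAAGT was found in *Cd3d* alone among the 5 windows (19.7% of all promoters, and 17.9% over the window length of *Cd3d*). TCAAGGGA was found in *Cd79a* alone (0.813% of all promoters, and 0.463% over the window length of *Cd79a*). TGTGGT, a core of the Runx family, and TATAAA, the TATA box, were in none of the 5 windows, against 14.0% and 12.4% of all promoters. These matches describe letters in the windows, and no binding was measured.

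The deposited values are TPM, the abundance of transcripts corrected for their length and scaled to sum to 1000000 in each library. Sequencing depth cannot be read from them, and no counting intervals or detection limits were calculated. *Omp*, the marker of mature OSNs, ranged from 1108 TPM in GFP-positive cells to 10108 TPM in tdTomato-negative cells, so that the marker was present in all libraries. Summed over 15 *Taar* genes, TPM was 86.1 and 60.8 in the GFP- and tdTomato-negative libraries and 804.1 and 3476 in the GFP- and tdTomato-positive libraries. Single genes were compared on the log2(TPM + 1) scale, which understates differences of genes with low values. With 1 library per group there is no replicate check and no p-value is given, and fewer cells of a type cannot be told apart from less RNA per cell.

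Transcripts of both receptor complexes were present in the reporter-negative cells and nearly missing from the reporter-positive cells of both lines. The summed TPM of the 8 genes was 673.3 in GFP-negative and 2.73 in GFP-positive cells, with -7.95 as the log2 ratio. In the other line it was 394.1 in tdTomato-negative and 7.15 in tdTomato-positive cells, with -5.78 as the log2 ratio. All 8 genes were at least 4-fold lower on the log2(TPM + 1) scale in GFP-positive cells, a difference seen in 15.0% of the 17963 genes above 0 TPM in either library. All 8 were also at least 4-fold lower in tdTomato-positive cells, compared with 10.7% of 16752 genes. The number at least 2-fold lower was 7 in GFP-positive cells with a pseudocount of 10, and 6 in each line with libraries scaled to pan-leukocyte genes. Shares of all genes were not calculated for these alternatives. The pan-leukocyte scaling shifted the median log2 ratio over genes by 4.55 and 4.54 in the GFP and tdTomato lines. With a 2-fold limit on log2(TPM + 1) of the values as deposited, the background was 40.5% of genes in GFP-positive and 21.9% in tdTomato-positive cells. The median log2 difference of the 8 genes was -5.21 in the first line and -4.72 in the second, while the median over all genes was -0.74 and -0.19.

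**Figure D2:**
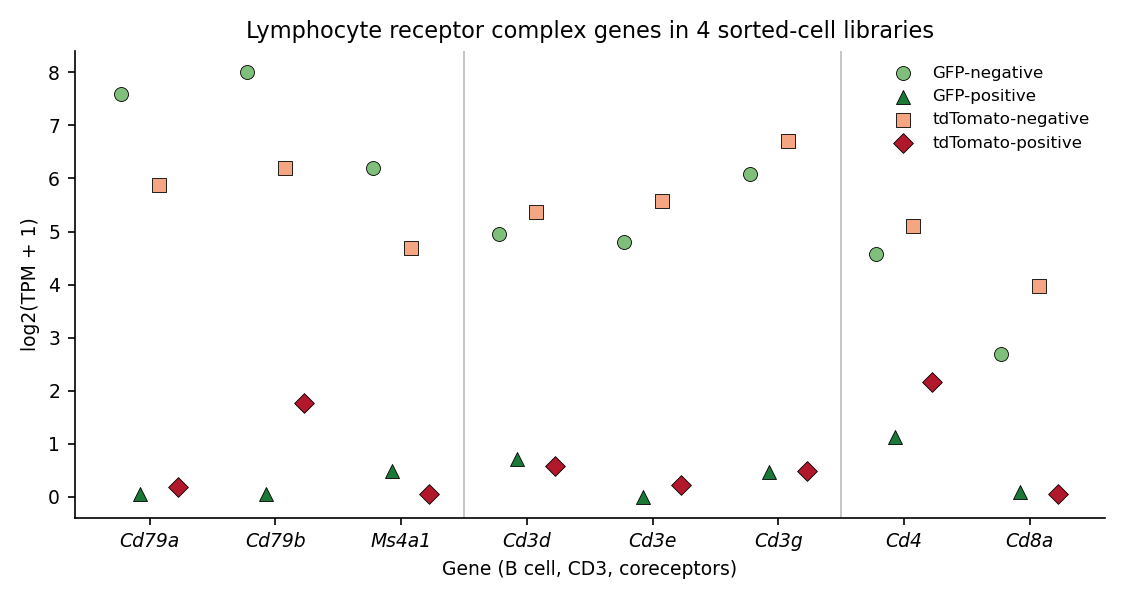
Level of each of the 8 genes as log2(TPM + 1) on the y axis in the 4 libraries, 1 point per library, with vertical lines between the B cell genes, the *Cd3* genes, and the coreceptors. Every reporter-positive value lies below both reporter-negative values of its gene, GFP-negative points are the highest for the 3 B cell genes, and tdTomato-negative points are the highest for the other 5.

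The B cell genes were the most abundant of the group in GFP-negative cells. *Cd79b*, encoding Ig-beta, was at 256.5 TPM in GFP-negative, 0.0325 in GFP-positive, 72.4 in tdTomato-negative, and 2.42 in tdTomato-positive cells. *Cd79a*, encoding its partner Ig-alpha, was at 191.9, 0.0293, 57.8, and 0.134 TPM in the same order. Both genes were high in the reporter-negative libraries, and the *Cd79b* value in tdTomato-positive cells was the only one of the 4 reporter-positive values above 1 TPM.

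*Ms4a1*, encoding CD20, was at 72.8 TPM in GFP-negative, 0.397 in GFP-positive, 24.9 in tdTomato-negative, and 0.0287 in tdTomato-positive cells. The log2 differences in the TAAR enhancer 1-GFP line were -7.96 for *Cd79b*, -7.55 for *Cd79a*, and -5.72 for *Ms4a1*. For tdTomato-positive cells they were -4.42, -5.70, and -4.65. CD79A and CD79B form a heterodimer, and TPM of *Cd79b* exceeded that of *Cd79a* by similar factors in the reporter-negative libraries, 1.34 and 1.25. In tdTomato-positive cells the factor was 18.1, so the low *Cd79b* signal there was not accompanied by *Cd79a* in the proportion of the other libraries.

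The 3 *Cd3* genes were each below the 3 B cell genes in GFP-negative cells, while in tdTomato-negative cells the levels of both groups overlapped. *Cd3g* was at 66.8 TPM in GFP-negative, 0.380 in GFP-positive, 103.6 in tdTomato-negative, and 0.404 in tdTomato-positive cells. *Cd3d* was at 30.1, 0.644, 40.4, and 0.489 TPM in that order. *Cd3e* was at 26.9 TPM in GFP-negative, 46.9 in tdTomato-negative, and 0.165 in tdTomato-positive cells, and was listed at 0 in GFP-positive cells. All 6 reporter-positive values of these genes were below 1 TPM. *Cd3g* had the highest TPM of the 3 in both reporter-negative libraries, 2.22 and 2.57 times that of *Cd3d*, and this order did not hold at the low levels of the reporter-positive cells. The log2 differences ranged from -5.62 (*Cd3g*) to -4.24 (*Cd3d*) for GFP-positive cells and from -6.22 (*Cd3g*) to -4.80 (*Cd3d*) for tdTomato-positive cells.

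The coreceptors were the lowest of the T cell genes in the reporter-negative libraries. *Cd4* was at 22.8 TPM in GFP-negative, 1.18 in GFP-positive, 33.4 in tdTomato-negative, and 3.47 in tdTomato-positive cells. *Cd8a* was at 5.44, 0.0621, 14.7, and 0.0378 TPM in the same order. *Cd4* had the highest level of the 8 genes in both reporter-positive libraries. It kept 5.17% of the GFP-negative level in GFP-positive cells and 10.4% of the tdTomato-negative level in tdTomato-positive cells, while *Cd8a* kept 1.14% and 0.257%. *Cd4* transcripts are also known from macrophages and dendritic cells, and *Cd8a* transcripts from a subset of dendritic cells. *Cd8b1*, encoding the CD8 beta chain of conventional cytotoxic T cells, was at 8.30 TPM in GFP-negative and 14.7 TPM in tdTomato-negative cells, compared with 5.44 and 14.7 TPM for *Cd8a*. *Cd4* exceeded *Cd8a* 4.20-fold in GFP-negative and 2.28-fold in tdTomato-negative cells.

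The order of the levels differed between the libraries. In GFP-negative cells it ran from *Cd79b* through *Cd79a*, *Ms4a1*, *Cd3g*, *Cd3d*, *Cd3e*, and *Cd4* to *Cd8a*. In tdTomato-negative cells *Cd3g* was first, followed by *Cd79b*, *Cd79a*, *Cd3e*, *Cd3d*, *Cd4*, *Ms4a1*, and *Cd8a*. *Cd79b* ranked 604th from the top of all genes in GFP-negative cells and 3146th in tdTomato-negative cells. Without replicates, neighbours in these orders have no spread against which to be judged.

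B and T cell genes differed in direction between the 2 reporter-negative libraries, which are also the reference libraries of the comparisons above. The 3 B cell genes were all lower in tdTomato-negative than in GFP-negative cells, *Cd79b* by 3.54-fold, *Cd79a* by 3.32-fold, and *Ms4a1* by 2.93-fold in TPM. The 5 T cell genes were all higher in tdTomato-negative cells, from 1.34-fold for *Cd3d* to 2.70-fold for *Cd8a*. At a 2-fold limit on the log2(TPM + 1) scale, the 3 B cell genes were lower in tdTomato-negative cells, as were 11.5% of the 17130 genes above 0 TPM in either library, and 1 gene, *Cd8a*, was higher, as were 10.6% of all genes. With a pseudocount of 10 the *Cd8a* difference was 0.68 on the log2 scale and 0 genes were higher. The other 4 genes, *Cd3d*, *Cd3e*, *Cd3g*, and *Cd4*, were within 2-fold.

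Within a library, the mean TPM of the 3 B cell genes was 173.8 and that of the 3 *Cd3* genes 41.2 in GFP-negative cells, a ratio of 4.21. In tdTomato-negative cells the means were 51.7 and 63.7, a ratio of 0.812, which was 1.02 without *Ms4a1* and 1.23 with medians, so that its direction depended on the choice. The ratio of means was 5.19 times larger in GFP-negative cells, a comparison that no scaling of whole libraries can change. With *Cd22* and *Cd79a* over *Cd3e*, *Cd2*, and *Lck*, it was 3.06 times larger. In reporter-positive cells the 4 means were below 1 TPM, and their ratios (0.448 in GFP-positive and 2.44 in tdTomato-positive cells) rest on values near 0. The direction in tdTomato-positive cells turned with medians and with *Cd22* and *Cd79a* over *Cd3e*, *Cd2*, and *Lck*, to log2 ratios of -1.60 and -1.24.

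**Figure D3:**
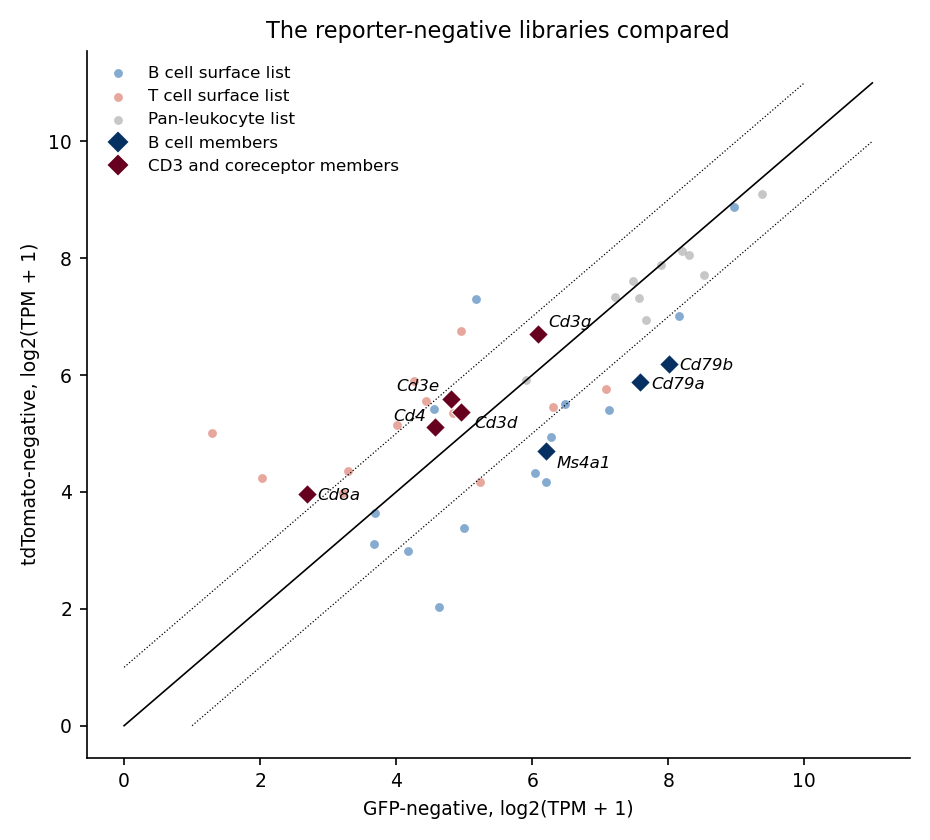
Levels in GFP-negative cells (x axis) against tdTomato-negative cells (y axis) as log2(TPM + 1), 1 point per gene, for the 8 genes (diamonds) and for the lists of B cell surface, T cell surface, and pan-leukocyte genes. The solid line marks equal levels and the dotted lines 2-fold differences. *Cd79a*, *Cd79b*, and *Ms4a1* lie below the lower dotted line, the *Cd3* genes and *Cd4* lie above the solid line, *Cd8a* lies above the upper dotted line, and the pan-leukocyte genes lie between the dotted lines.

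The 10 pan-leukocyte genes did not share the contrast between the reporter-negative libraries. None of them differed 2-fold, and their summed TPM was 2650 in GFP-negative and 2225 in tdTomato-negative cells. *Ptprc*, encoding the leukocyte common antigen CD45, was at 178.3 and 194.0 TPM. Relative to *Ptprc*, the mean of the B cell genes was 0.974 in GFP-negative and 0.266 in tdTomato-negative cells, and the mean of the *Cd3* genes was 0.231 and 0.328. Among other leukocyte lists, of 9 neutrophil genes, 7 were at least 2-fold lower in tdTomato-negative cells and 1 higher, and their summed TPM was 9998 in GFP-negative and 2596 in tdTomato-negative cells. Of 10 macrophage and monocyte genes, 7 were lower and 1 was higher. Of all genes, 11.5% were at least 2-fold lower in tdTomato-negative cells and 10.6% were higher. Of 8 dendritic cell genes above 0 TPM, 2 were lower and 6 were within 2-fold, and of 5 MHC class II genes, 1 was lower and 4 were within 2-fold. The 6 mature OSN markers were all within 2-fold, with a median log2 difference of 0.02. The part of these cell types, of age, of line, and of dissection in the contrast was not tested, since the reporter-negative libraries differ in all that separates the lines.

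Other genes of the B lineage were compared in the same way. Of all genes, 11.5% were at least 2-fold lower in tdTomato-negative than in GFP-negative cells and 10.6% were higher. Among 15 B cell coreceptors and surface proteins, 9 were lower and 1 was higher by this limit. *Fcer2a*, encoding the low-affinity IgE receptor CD23 of mature B cells, was at 64.6 TPM in GFP-negative and 19.1 TPM in tdTomato-negative cells. The 1 higher gene, *Ifitm1*, encodes an interferon-induced membrane protein that many cell types make, and was at 35.2 and 156.8 TPM. Of 11 genes of B cell receptor signalling, 2 were lower (*Blk* and *Bank1*) and 9 were within 2-fold. Of 7 transcription factors of the B lineage, *Spib* was lower and 6 were within 2-fold. *Ebf1*, which OSNs also express, was at 183.7 and 198.2 TPM.

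Genes of immature lymphocytes had values above 0 in reporter-negative cells. *Rag1*, a subunit of the recombinase that assembles receptor genes, was at 9.86 TPM in GFP-negative and 2.28 TPM in tdTomato-negative cells, and *Dntt*, the template-independent polymerase of that step, was at 13.8 and 0.0321 TPM. *Rag1*, *Rag2*, and *Dntt* were listed at 0 in both reporter-positive libraries, and *Ptcra*, the pre-T cell receptor alpha chain, was listed at 0 in all 4. *Igll1* and *Vpreb1*, which encode the surrogate light chain of pre-B cells, were 5.07- and 3.47-fold higher in GFP-negative than in tdTomato-negative cells. *Jchain*, which joins immunoglobulin polymers in plasma cells, went the other way, with 3.47 TPM in GFP-negative and 981.3 TPM in tdTomato-negative cells. The plasma cell list as a whole had 4 of 7 genes at least 2-fold higher in tdTomato-negative cells and none lower, compared with 10.6% and 11.5% of all genes. *Sdc1* and *Xbp1* of that list are also known from epithelial and secretory cells. The listed constant chains of immunoglobulins and of the T cell receptor, which complete the complexes, were not found by symbol among the deposited values.

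Genes of the T lineage had a mixed pattern between the reporter-negative libraries. Of all genes, 10.6% were at least 2-fold higher in tdTomato-negative cells and 11.5% were lower. Of 12 T cell surface and costimulation genes, 7 were at least 2-fold higher in tdTomato-negative cells and 2 were lower. Those higher were led by *Cd40lg*, the CD40 ligand of helper T cells, at 1.44 TPM in GFP-negative and 31.0 TPM in tdTomato-negative cells. *Ctla4* and *Icos*, receptors of activated and regulatory T cells, were 3.57- and 3.20-fold higher there. *Ccr7*, a chemokine receptor gene of lymph node homing that naive B cells also express, was among those lower. Of 14 genes of T cell receptor signalling, 3 were higher, 1 was lower, and 10 were within 2-fold. *Lck*, the kinase that CD4 and CD8 carry, was at 56.0 and 64.3 TPM, and *Lat*, the membrane adaptor downstream of the receptor, at 95.8 and 113.3 TPM. Of 10 T lineage transcription factors, 2 were higher (*Foxp3* and *Runx3*) and 8 were within 2-fold. *Cd247*, encoding the zeta chain, was at 14.0 TPM in GFP-negative and 15.7 TPM in tdTomato-negative cells. Of 10 genes of NK and cytotoxic cells, 3 (*Gzma*, *Gzmb*, and *Ccl5*) were lower in tdTomato-negative cells, and *Gzma*, a granule protease, was 8.82-fold lower.

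Between reporter-positive and reporter-negative cells, most genes of 6 of these lists were lower in the former. In the TAAR enhancer 1-GFP line, 14 of 15 B cell surface genes, 9 of 11 genes of B cell receptor signalling, 7 of 7 B lineage transcription factors, 13 of 14 genes of T cell receptor signalling, 12 of 12 T cell surface genes, and 9 of 10 T lineage transcription factors were at least 2-fold lower in GFP-positive cells. The corresponding counts for tdTomato-positive cells were 13, 8, 7, 12, 12, and 9. Of all genes, 40.5% were at least 2-fold lower in GFP-positive and 21.9% in tdTomato-positive cells. The plasma cell list was mixed. In GFP-positive cells 2 of 7 genes were lower, against 40.5% of all genes, and 3 were higher (*Xbp1*, *Sdc1*, and *Derl3*). In tdTomato-positive cells 4 of 7 were lower, against 21.9% of all genes, and 1 was higher (*Sdc1*). The share of all genes that rose by this limit was not calculated for either line, so counts of higher genes have no background here. Of the 3 surrogate light chain and related genes above 0 TPM, 2 (*Igll1* and *Vpreb1*) were lower in GFP-positive cells, and 1 was lower (*Igll1*) and 1 higher (*Vpreb3*) in tdTomato-positive cells. *Cd22*, an inhibitory coreceptor of B cells, had 71.9 TPM in GFP-negative cells, compared with 0.114 TPM in GFP-positive cells, and was listed at 0 in tdTomato-positive cells compared with 24.8 TPM in tdTomato-negative cells. A few genes of the B cell lists had other patterns. *Ifitm1* was higher in the reporter-positive cells of both lines, at 946.8 and 1415 TPM. *Lyn* and *Blnk* were within 2-fold in both lines. *Vpreb3*, a gene of B cell precursors, was at 68.6 TPM in GFP-negative, 81.8 in GFP-positive, 41.7 in tdTomato-negative, and 533.2 in tdTomato-positive cells, unlike *Cd79a* and *Cd22*, which were below 1 TPM in both reporter-positive libraries.

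**Figure D4:**
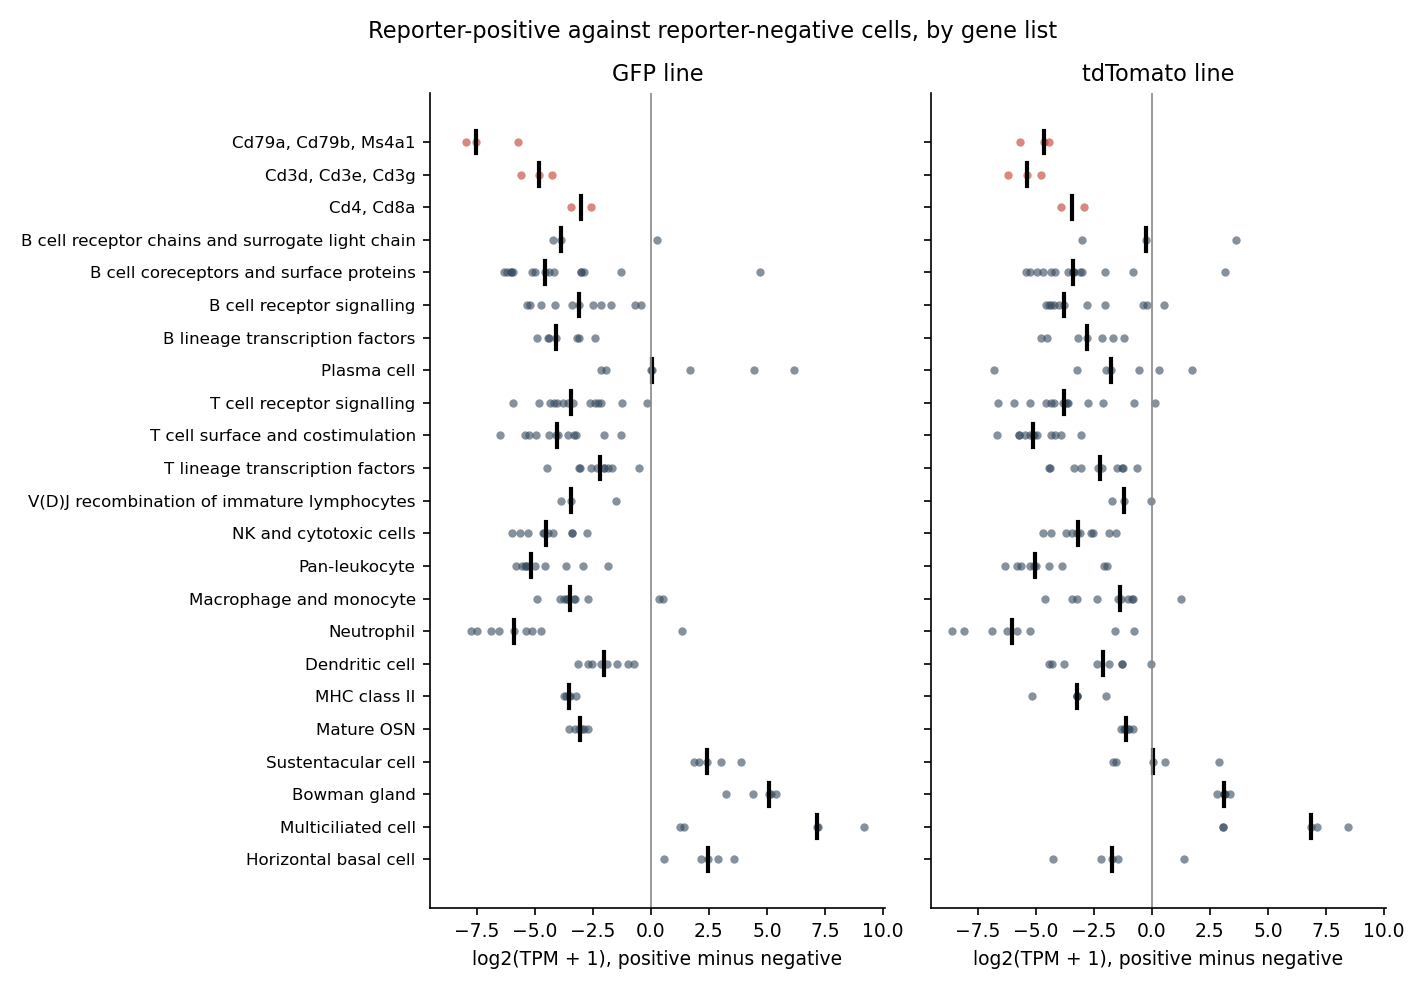
Difference in log2(TPM + 1) between reporter-positive and reporter-negative cells (x axis) for each gene of the lists (rows), GFP line on the left and tdTomato line on the right. Points are genes above 0 TPM in either library, bars are medians, and the 8 genes described here are in red in the top 3 rows. All red points lie left of 0 in both panels, with medians of -7.55, -4.80, and -3.02 on the left and -4.65, -5.36, and -3.43 on the right.

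The low level of the lymphocyte genes in reporter-positive cells went with that of leukocyte genes in general. In each line all 10 pan-leukocyte genes were lower by 2-fold or more, as were 40.5% of all genes in GFP-positive and 21.9% in tdTomato-positive cells. The median log2 differences of the 10 genes were -5.15 in GFP-positive and -5.03 in tdTomato-positive cells. *Ptprc* was at 3.14 TPM in GFP-positive and 1.42 TPM in tdTomato-positive cells. The summed TPM of the 8 genes was 25.4% of that of the pan-leukocyte genes in GFP-negative and 1.74% in GFP-positive cells, and 17.7% in tdTomato-negative and 5.40% in tdTomato-positive cells. The pan-leukocyte sum of reporter-positive cells was led by *Lcp1*, an actin-bundling protein, at 65.3 and 56.0 TPM. When libraries were scaled to the pan-leukocyte genes, the log2 ratio of summed TPM of the 8 genes was -3.40 and -1.24, and *Cd4* alone became higher in reporter-positive cells, by 0.27 and 1.26 on the log2(TPM + 1) scale in the GFP and tdTomato lines, respectively.

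Other leukocyte lists had lower medians in reporter-positive cells as well. The median log2 difference in the GFP and tdTomato lines was -5.89 and -6.03 for neutrophil, -4.51 and -3.16 for NK and cytotoxic cell, -3.52 and -3.24 for MHC class II, -3.48 and -1.39 for macrophage and monocyte, and -2.02 and -2.11 for dendritic cell genes. Medians and sums differed for the macrophage and monocyte list, whose summed TPM was 2588 in GFP-negative, 2202 in GFP-positive, 1165 in tdTomato-negative, and 1870 in tdTomato-positive cells. *Lyz2*, the lysozyme gene of that list, was higher in tdTomato-positive cells by 1.27 on the log2(TPM + 1) scale, and *Ltf*, the lactoferrin gene of the neutrophil list, was higher in GFP-positive cells by 1.34. The 6 mature OSN markers were also lower, by medians of 3.05 and 1.11, whereas Bowman gland genes (medians of 5.09 and 3.11) and multiciliated cell genes (7.16 and 6.87) were higher in both lines. The medians were 2.44 and 0.06 for sustentacular cell genes and 2.45 and -1.72 for horizontal basal cell genes. How far this change in the makeup of the libraries sets the TPM of the lymphocyte genes was not tested. With libraries scaled to the mature OSN markers, a scaling chosen after the data were seen, the log2 ratio of the summed 8 genes was -4.86 and -4.69.

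Genes with profiles like those of the receptor genes were sought among the 14604 genes that reached 5 TPM in 1 or more libraries. Likeness was the Euclidean distance between log2(TPM + 1) values over the 4 libraries after centring, and it describes 4 points that share the sort and the libraries. Among the 5 genes nearest to the mean profile of *Cd79a*, *Cd79b*, and *Ms4a1* were the odorant receptor genes *Olfr786* (distance 0.518) and *Olfr133* (0.577), *Cd37* (0.582), and *Acap1* (0.779). *Cd79a*, *Cd79b*, and *Ms4a1* themselves lay at 0.666, 0.911, and 1.05 from that mean. *Cd37*, a tetraspanin gene of B cells, was at 283.3 TPM in GFP-negative, 2.56 in GFP-positive, 127.3 in tdTomato-negative, and 2.39 in tdTomato-positive cells. The 5 genes nearest to the mean profile of the *Cd3* genes were all odorant receptor genes (*Olfr1016*, *Olfr165*, *Olfr332*, *Olfr43*, and *Olfr130*), at distances from 0.0310 to 0.175. The *Cd3* genes themselves were farther from that mean, at 0.202 (*Cd3e*), 0.680 (*Cd3d*), and 0.746 (*Cd3g*). *Olfr1016* was at 28.1 TPM in GFP-negative and 44.1 TPM in tdTomato-negative cells and was listed at 0 in both reporter-positive libraries. These odorant receptor genes share with *Cd3e* a moderate level in reporter-negative cells and a value at or near 0 in reporter-positive cells.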

How the data were processed

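RNA-seq values of FACS-sorted MOE cells were analysed in 4 libraries, 1 per group, with groups taken from the sample titles. The authors deposited TPM values per gene symbol, 1 column per library. The submitters' processing notes name Trimmomatic 0.36, Salmon 1.4.0, and mm10, while the methods of the study name Hisat2, Cufflinks, and featureCounts for RNA-seq. Which of these gave the TPM values, the annotation, and any filter are not given in the sources used here. The labels and the methods also name different kits for extraction and library preparation. TPM keeps no depth, so no intervals were calculated.

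TPM was used as deposited. Single genes were compared as log2(TPM + 1), and sums as log2 ratios. Genes above 0 TPM in either library of a comparison were the background. With 1 library per group no test was run. A fit of reporter status over both lines, with line as a block, would leave 1 residual degree of freedom and treat both enhancers as the same condition, and was not run. The 8 genes and 24 gene lists (190 genes, of which 172 were found by symbol) were chosen with earlier results of these data known, and the scaling to mature OSN markers and the ratio of *Cd22* and *Cd79a* to *Cd3e*, *Cd2*, and *Lck* were added after the data were seen. Some list genes are not reported here. Named genes are the 8 genes, genes of the lists, the 5 with the nearest profiles for B cell and *Cd3* genes, and the checks *Omp* and *Taar*. List genes other than the highest or those at 0 throughout were named after their values were seen. Alternatives were pseudocounts of 0.1 and 10, a 4-fold limit, a minimum of 1 TPM, 4 scalings, and other genes for the ratio of B cell to *Cd3* genes. Gene positions are from GENCODE M21 and promoters from RefSeq. Fold changes, median-ratio scaling, and scaling without the highest genes were tested on simulated data. The scalings to pan-leukocyte genes and to mature OSN markers were not. Python 3.11.15, NumPy 2.4.6, pandas 2.3.3, and Matplotlib 3.10.9 were used.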

Additional observations from a re-analysis of the deposited data

Results flagged for a closer look

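Lists were looked at again where their medians had opposite directions in the 2 lines. This was the case for plasma cell genes, with a median log2 difference between reporter-positive and reporter-negative cells of 0.0675 for the GFP reporter and -1.75 for the tdTomato reporter, and for horizontal basal cell genes, with 2.45 and -1.72. With a single library in every group, whether the lines differ was not tested. None of the 8 receptor complex genes had opposite directions in the lines.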

How the results depend on the processing

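No paired analysis was run. The reporter-positive and reporter-negative libraries of each line form 1 pair, and a fit with line as a block was left out. A log2 value is called moved here when it differed by more than 0.58 (1.5-fold). The direction between reporter-positive and reporter-negative cells held for the sum of the 8 genes under all scalings run, and for each gene under all alternatives run except *Cd4* under the scaling to pan-leukocyte genes, where it was 0.27 in the GFP and 1.26 in the tdTomato line, so that 1 gene was at least 2-fold higher in the latter. Of the 8 genes, the number at least 2-fold lower was then 6 in each line, and it was 7 in the GFP line with a pseudocount of 10. The shares of all genes at least 2-fold higher or lower were not calculated for these alternatives, so these counts have no background. Across all genes, the scalings shifted the median by 0.88 and 0.16 (median ratio), 0.51 and 0.05 (without the 24 highest genes), 4.55 and 4.54 (pan-leukocyte genes), and 3.09 and 1.09 (mature OSN markers, a scaling added once the data had been seen) in the 2 lines. The log2 ratio of the sum of the 8 genes moved to -7.06 in the GFP line with median-ratio scaling, to -3.40 and -1.24 with pan-leukocyte scaling, and to -4.86 and -4.69 with mature OSN scaling. Over the 8 genes, log2 differences ranged from -7.96 to -2.60 and from -6.22 to -2.94 in the GFP and tdTomato lines, and from -4.73 to -0.62 and from -3.45 to -1.30 with a pseudocount of 10, and from -10.9 to -4.16 and from -7.95 to -3.23 with a pseudocount of 0.1. Between the reporter-negative libraries, none of the 8 genes passed a 4-fold limit (0 lower and 0 higher), and 0 of the 8 were 2-fold higher with a pseudocount of 10. The share of all genes was not calculated at these settings.

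The log2 ratio of B cell to *Cd3* genes was 2.07 in GFP-negative, -1.16 in GFP-positive, -0.30 in tdTomato-negative, and 1.29 in tdTomato-positive cells. With medians in place of means it was 2.67, -3.55, 0.30, and -1.60, respectively. Without *Ms4a1* it was -3.47 in GFP-positive and 0.0321 in tdTomato-negative cells. With *Cd22* and *Cd79a* over *Cd3e*, *Cd2*, and *Lck*, chosen after the data had been seen in place of a planned set that was left out, it was 1.30 in GFP-negative, -3.10 in GFP-positive, and -1.24 in tdTomato-positive cells. So which group of genes was higher within tdTomato-negative and tdTomato-positive cells depended on the choice. The change of this ratio from GFP-negative to tdTomato-negative cells was -2.38, and -1.61 with these other genes. The cause of these moves was not tested. The unknown depth limits the values below 1 TPM most.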
